A study of Homo sapiens with 6 samples.

Results

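The anti-apoptotic genes of the BCL2 family were examined in SU-DHL-8 cells given erianin or DMSO. They were the 5 genes BCL2, BCL2L1 (which encodes BCL-XL), BCL2L2 (BCL-W), BCL2A1 (BFL-1 or A1) and MCL1, found by symbol among the 65746 symbols of the deposited count table. All 5 were among the 11550 genes with enough counts to be tested.

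SU-DHL-8 is an established line of human diffuse large B-cell lymphoma (DLBCL), labelled wild type. Erianin, a bibenzyl found in Dendrobium orchids, is known to bind tubulin. Cells of the treated group had received 100 nM erianin for 24 h, and those of the control group DMSO for 24 h, with 3 libraries of total RNA in each group. The labels do not say whether the replicates were separate cultures, so the p-values cover only the spread between the samples, part of which may be technical.

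Proteins of the BCL2 family decide whether the outer mitochondrial membrane stays closed. The anti-apoptotic members bind and hold back the pore-forming effectors BAX and BAK and the BH3-only proteins that activate them, and cells differ in which member they rely on. BCL2 is a well-known lymphoma gene and the target of venetoclax. MCL1 is a short-lived protein needed by germinal centre B cells, and BCL2A1 is a classical target of the transcription factor NF-kB.

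Total counts were 30956443 to 35588728 per library, and 3 counts equalled 0.0819 to 0.0986 CPM (library-size-scaled counts, with TMM factors), for counting error only. DMSO replicate 1 stood apart: 8.56% of its counts came from ribosomal protein genes, against 11.5% to 12.5% in the other libraries, so results are given with and without it where it matters. All 6 B-lineage markers, such as CD79B, had at least 3 counts in every library, as did 4 of 6 germinal centre markers, while the germinal centre markers LMO2 and SERPINA9 were at 0 or 1 count. Of 3 T-cell markers, CD2 was at 0 and CD3D and CD3E had at most 2 counts in a library. The 3 monocyte markers summed to 4.30 to 7.27 CPM with DMSO and 9.30 to 10.5 CPM with erianin, most of it LYZ. CD14, a defining marker of that list, rose from 0.109 ± 0.139 to 1.57 ± 0.0245 CPM (mean ± SD, n = 3 each), and the part of these genes in the results was not tested. In bulk RNA, fewer cells that express a gene and less RNA per cell cannot be told apart.

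MCL1 rose while BCL2L1 and BCL2 fell, and neither BCL2L2 nor BCL2A1 was called. MCL1 and BCL2L1 were the abundant members, and they moved in opposite directions by similar factors. Thus 3 of the 5 genes were called, 1 higher and 2 lower, at an adjusted p under 0.05 in edgeR's quasi-likelihood test. Among all genes tested, 24.2% were called, 11.8% higher and 12.3% lower (1368 and 1423 genes), a split that moved to 1763 and 1093 with upper-quartile scaling and 1840 and 918 with total counts alone. Leaving out DMSO replicate 1 gave the same count of members, 1 higher and 2 lower, where 55.3% of all genes were called. Without erianin replicate 1 none of the members was called and without erianin replicate 2 only BCL2 was, where 6.65% and 6.36% of all genes were called. With limma on log2(TPM + 1) and log2(TPM + 0.1), which carry another scale for DMSO replicate 1, none of the 5 was called, against 14.5% and 13.1% of all genes. Those scales moved the median log2 fold change of all genes from -0.003 to 0.20 and 0.28 (0.11 with total counts alone), and 1408 calls were higher and 262 lower on the first, 1263 and 245 on the second. Relative to that median, on log2(TPM + 1), MCL1 was at 0.56, BCL2L1 at -0.48 and BCL2 at -0.54.

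MCL1 (chromosome 1, 150574551 to 150579738, minus strand, GENCODE 29 on GRCh38) encodes the short-lived member of the family. Its level was 285, 281 and 275 CPM in DMSO replicates 1, 2 and 3 and 397, 409 and 380.4 CPM in erianin replicates 1, 2 and 3. All erianin libraries were above all DMSO libraries, as was one side against the other for 46.8% of genes tested. The mean rose from 280.5 ± 4.96 to 395 ± 14.1 CPM, a 1.41-fold change (log2 fold change 0.49 ± 0.09 SE, edgeR adjusted p = 0.0094). DMSO replicate 1 lay with the other DMSO libraries here, and without it the log2 fold change was 0.52 ± 0.06 (edgeR adjusted p = 7.1e-08). The call was lost without erianin replicate 1 (edgeR adjusted p = 0.061) or replicate 2 (0.067), with log2 fold changes of 0.50 and 0.48.

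BCL2L1 (chromosome 20, 31664452 to 31723989, minus strand) encodes BCL-XL, the other abundant guardian of the mitochondrial membrane. Its level was 306, 300.0 and 291 CPM with DMSO and 198, 197 and 216 CPM with erianin, in replicate order. The groups did not overlap, and erianin replicate 3 was the highest of its group. The mean fell from 299 ± 7.30 to 204 ± 11.0 CPM, to 0.682 of the DMSO level (log2 fold change -0.55 ± 0.09 SE, edgeR adjusted p = 0.0076). The log2 fold change was -0.52 ± 0.06 without DMSO replicate 1 (edgeR adjusted p = 8.3e-08). As for MCL1, the call ended without erianin replicate 1 (edgeR adjusted p = 0.063) or replicate 2 (0.065). An antisense gene, ABALON, shares 1424 of the 3314 exonic bases of BCL2L1. The handling of strand is not given in the sources used here, so reads there cannot be assigned with certainty. ABALON held 64 to 157 counts per library and BCL2L1 6813 to 9895. These counts cannot show how reads over the shared bases were assigned or whether some were left out.

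BCL2 (chromosome 18, 63123346 to 63320128, minus strand), the founding member, was expressed far below MCL1 in this line. It had 14.2, 14.1 and 13.6 CPM with DMSO and 8.60, 9.65 and 7.52 CPM with erianin. The DMSO libraries were close together, and every erianin library lay below them. The mean fell from 13.97 ± 0.352 to 8.59 ± 1.07 CPM, to 0.615 of the DMSO level (log2 fold change -0.70 ± 0.13 SE, edgeR adjusted p = 0.011). Without DMSO replicate 1 the log2 fold change was -0.68 ± 0.12 (edgeR adjusted p = 2.9e-05), and without erianin replicate 1 the gene was not called (-0.69, edgeR adjusted p = 0.066).

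The start regions of the 2 members that fell are shown because both were called lower. RefSeq windows (GRCh38.p14, 250 bases before to 50 after a start, minus strand, written 5′ to 3′) were found for BCL2, BCL2A1 and BCL2L1, which has a pair of starts, and not for MCL1 or BCL2L2. Both strands were searched for the GC box GGGCGG, the ETS factor motif CCGGAA, the cyclic AMP element TGACGTCA and the STAT palindrome TTCNNNGAA. Capitals mark the matches, which did not overlap each other.
BCL2, chr18:63319720-63320019: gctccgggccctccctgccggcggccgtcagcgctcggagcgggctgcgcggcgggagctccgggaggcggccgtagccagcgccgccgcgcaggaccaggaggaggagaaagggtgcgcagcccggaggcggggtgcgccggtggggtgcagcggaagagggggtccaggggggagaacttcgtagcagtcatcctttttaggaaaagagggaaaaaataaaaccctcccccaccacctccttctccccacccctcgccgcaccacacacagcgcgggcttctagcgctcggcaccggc
BCL2L1 upstream start, chr20:31723914-31724213: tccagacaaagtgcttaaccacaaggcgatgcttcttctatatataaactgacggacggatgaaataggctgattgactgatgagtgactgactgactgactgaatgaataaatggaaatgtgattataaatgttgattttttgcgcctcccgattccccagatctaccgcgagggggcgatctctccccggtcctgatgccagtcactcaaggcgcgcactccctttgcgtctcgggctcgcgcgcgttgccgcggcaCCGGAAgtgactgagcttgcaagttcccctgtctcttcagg
BCL2L1 downstream start, chr20:31722819-31723118: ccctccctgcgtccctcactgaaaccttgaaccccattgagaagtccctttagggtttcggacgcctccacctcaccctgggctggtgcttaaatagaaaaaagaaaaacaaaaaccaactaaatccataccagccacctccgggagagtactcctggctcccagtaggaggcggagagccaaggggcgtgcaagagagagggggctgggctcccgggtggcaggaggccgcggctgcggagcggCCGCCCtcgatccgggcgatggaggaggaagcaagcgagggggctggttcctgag
The BCL2 window held none of the 4 motifs and had a GC content of 70.7%. The upstream BCL2L1 window (52% GC) held 1 ETS motif near its start site, a motif found in 17.2% of all 35116 windows of this length. The downstream window (61.3% GC) held 1 GC box, read on the other strand, which 45% of windows hold. The BCL2A1 window (41% GC) held 1 STAT motif, as did 7.66% of windows. The 2 genes that fell thus shared none of these motifs in these windows, and a match is a string of letters, not a measured site.

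BCL2L2 (chromosome 14, 23298790 to 23311759, plus strand) encodes BCL-W, a close relative of BCL-XL. Its level was 19.2, 28.1 and 29.6 CPM with DMSO and 31.7, 31.0 and 31.5 CPM with erianin. The erianin libraries were tightly grouped above all 3 DMSO libraries, of which replicate 1 was far lower than the rest. The means were 25.6 ± 5.60 and 31.4 ± 0.351 CPM (log2 fold change 0.29 ± 0.17 SE, edgeR adjusted p = 0.25). Without DMSO replicate 1 the log2 fold change shrank to 0.14 ± 0.08 (edgeR adjusted p = 0.16). BCL2L2 shares 206 of its 4189 exonic bases with PPP1R3E on the opposite strand and 813 with the read-through gene BCL2L2-PABPN1, which was given 1 to 4 counts per library. PPP1R3E held 1087, 967 and 905 counts with DMSO and 944, 888 and 916 with erianin, where BCL2L2 held 585 to 1160. The part of these overlaps in the BCL2L2 counts was not tested.

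BCL2A1 (chromosome 15, 79960889 to 79971446, minus strand) had the lowest CPM of the members, a measure not per length. It had 30, 36 and 42 counts with DMSO and 32, 36 and 16 counts with erianin. In CPM these were 0.985, 1.11 and 1.24 with DMSO and 0.874, 1.04 and 0.457 with erianin, so the groups overlapped and erianin replicate 3 was the lowest library. The means were 1.11 ± 0.125 and 0.790 ± 0.300 CPM (log2 fold change -0.49 ± 0.32 SE, edgeR adjusted p = 0.31). The SE was over 3 times that of BCL2L1, and a difference of this size was not resolved with these 6 libraries. Leaving out erianin replicate 3 moved the log2 fold change to -0.22 ± 0.25 (edgeR adjusted p = 0.61).

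**Figure D1:**
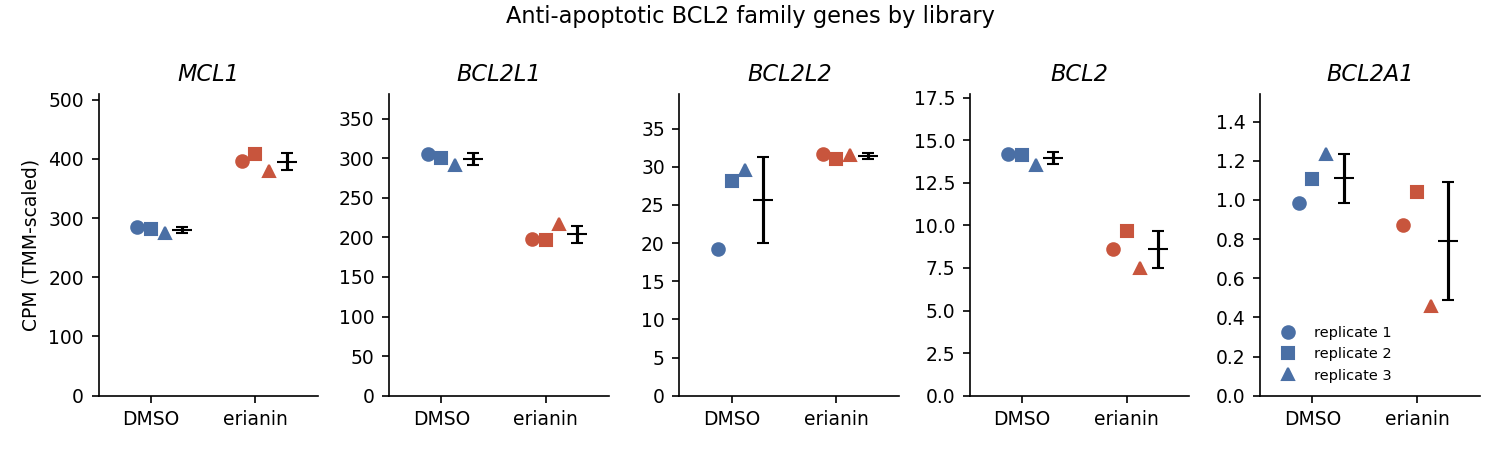
Level of each anti-apoptotic gene in CPM (y axis, linear from 0, own scale per gene) in each DMSO and erianin library, with marker shape giving the replicate and the black bar the mean ± SD (n = 3). MCL1 is higher in all 3 erianin libraries, BCL2L1 and BCL2 are lower, DMSO replicate 1 is the low point of BCL2L2, and the groups of BCL2A1 overlap.

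By the deposited TPM, the make-up of the family shifted from near parity of MCL1 and BCL2L1 towards MCL1. Levels of different genes were compared per length, as each gene's share of the summed TPM (length-scaled abundance) of the 5 genes in a library, which does not depend on the scale of the library. MCL1 took 50.4%, 49.1% and 49.0% of the family TPM in DMSO replicates 1, 2 and 3 and 65.2%, 65.9% and 63.0% in the erianin replicates. BCL2L1 took 42.1%, 40.9% and 40.4% with DMSO and 25.4%, 24.8% and 28.0% with erianin. No library of one group reached the other for either gene, and DMSO replicate 1 fell in with its group. The mean share of MCL1 rose by 15.2 points, from 49.5% ± 0.748 to 64.7% ± 1.49 (n = 3 each), and that of BCL2L1 fell by 15.1 points, from 41.2% ± 0.851 to 26.0% ± 1.70. For each difference the exact permutation test (two-sided) gave p = 0.1 and an adjusted p of 0.125 over the 5 shares, and 3 against 3 libraries can go no lower than 0.1.

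The 3 minor members together made up the rest. The share of BCL2L2 was 6.83% ± 1.50 with DMSO and 7.76% ± 0.184 with erianin (n = 3 each, exact permutation p = 0.4), with overlapping groups. The difference of 0.93 points fell to 0.076 without DMSO replicate 1, while with counts over the GENCODE length the groups did not overlap (n = 3 each, exact permutation p = 0.1). That of BCL2 was 1.48% ± 0.0280 and 0.844% ± 0.0935, with every erianin library lower (n = 3 each, exact permutation p = 0.1). That of BCL2A1 was 1.04% ± 0.122 and 0.684% ± 0.253, where the highest erianin library (0.889%) lay just under the lowest DMSO library (0.923%). The BCL2A1 groups overlapped with shares of counts and with counts over the GENCODE length (n = 3 each, exact permutation p = 0.2 in both). The shares ran in the order MCL1, BCL2L1, BCL2L2, BCL2 and BCL2A1 in both group means. With erianin, BCL2 and BCL2A1 did not differ beyond their spread (0.748% to 0.935% against 0.402% to 0.889%). With counts over the GENCODE length their erianin means were 0.454% ± 0.0547 and 0.451% ± 0.170 (n = 3 each).

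The order of the top pair with DMSO depended on the gene length used. The length implied by the authors' TPM was 1.28 times that of MCL1 for BCL2L1, whereas the GENCODE 29 exonic length was 0.758 times. With counts divided by the GENCODE length, BCL2L1 led with DMSO (55.4% ± 0.674 against 39.4% ± 0.271 for MCL1) and MCL1 led with erianin (56.2% ± 1.88 against 38.2% ± 2.08). MCL1 was first with erianin under both lengths. The summed level of the 5 genes, not per length, was 620.1 ± 8.06 CPM with DMSO and 639.8 ± 6.31 CPM with erianin. Summed TPM was 189, 294 and 288 with DMSO and 324, 338 and 322 with erianin, in replicate order. DMSO replicate 1 is on another TPM scale.

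**Figure D2:**
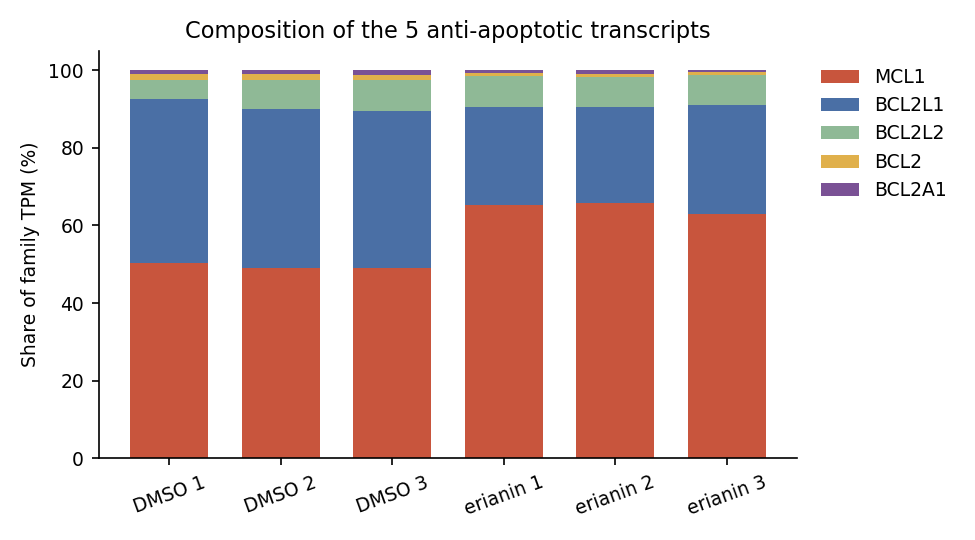
Share of the summed TPM of the 5 genes (y axis, percent) taken by each gene in each of the 6 libraries (x axis). MCL1 takes 49.0% to 50.4% with DMSO and 63.0% to 65.9% with erianin, while BCL2L1 takes 40.4% to 42.1% and then 24.8% to 28.0%.

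Ratios of TPM within a library showed the same shift and, being ratios, do not depend on the scaling of a library. Their level depends on the gene lengths used. MCL1 to BCL2L1 was 1.197, 1.20 and 1.21 with DMSO and 2.57, 2.66 and 2.25 with erianin, a 2.07-fold change of the mean. With counts over the GENCODE length it was 0.708, 0.710 and 0.717 with DMSO and 1.52, 1.57 and 1.33 with erianin. MCL1 to BCL2 was 33.4, 33.0 and 33.8 with DMSO and 76.8, 70.4 and 84.2 with erianin, a 2.31-fold change. The DMSO libraries were nearly identical in both ratios, including replicate 1. PMAIP1 encodes NOXA, a BH3-only protein that binds MCL1. The ratio of PMAIP1 to MCL1 was 0.268, 0.342 and 0.324 with DMSO and 0.349, 0.326 and 0.320 with erianin. These overlapped (n = 3 each, exact permutation p = 0.5). BCL2L11 encodes BIM, which all anti-apoptotic members bind, and its ratio to BCL2 was 3.28, 2.90 and 3.07 with DMSO and 3.82, 3.50 and 4.11 with erianin. Both MCL1 ratios and the BIM ratio did not overlap between groups (n = 3 each, exact permutation p = 0.1, adjusted 0.133 over the 4 ratios).

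**Figure D3:**
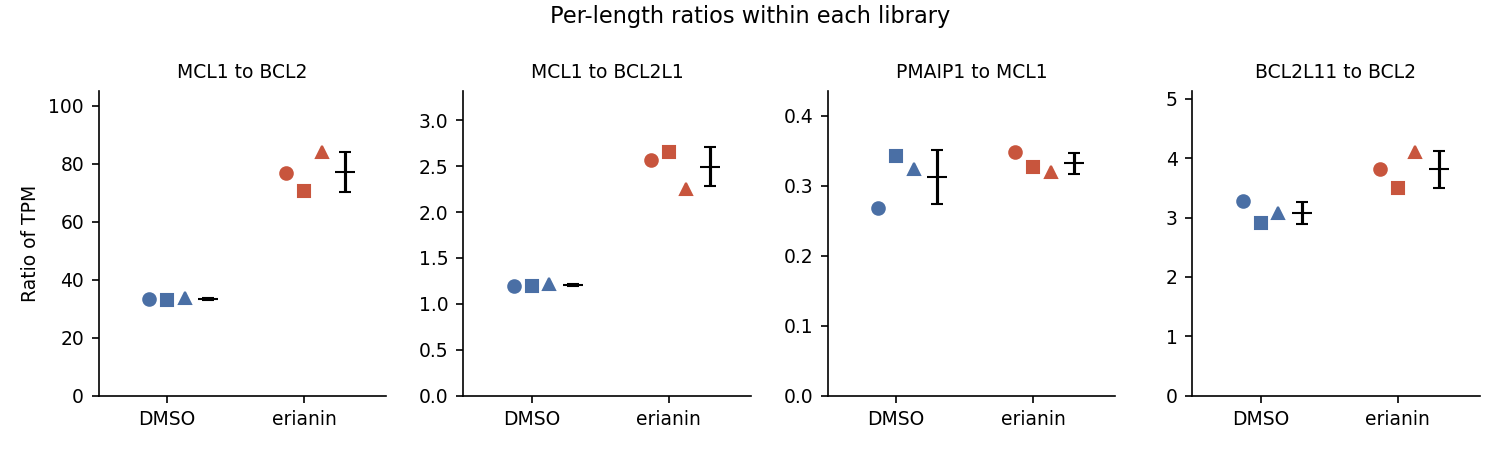
Ratio of the TPM of the first gene to that of the second (y axes, linear from 0) in each library, with the black bar the mean ± SD (n = 3) and marker shape the replicate (circle 1, square 2, triangle 3). The mean MCL1 ratios are 2.31 and 2.07 times higher with erianin, while PMAIP1 to MCL1 overlaps between groups.

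The effectors and BH3-only genes, the opponents of the family, mostly were not called. Of 11 genes, 1 rose, 2 fell and 8 were not called, a share near the 24.2% of all genes tested, and their median log2 fold change was 0.05 against -0.003 over all genes. PMAIP1 rose from 35.9 ± 4.09 to 53.9 ± 3.48 CPM (0.59 ± 0.12 SE, edgeR adjusted p = 0.015), by a factor near that of MCL1. HRK, a BH3-only gene best known from neurons, fell from 12.6 ± 0.438 to 7.51 ± 0.816 CPM (-0.75 ± 0.13, edgeR adjusted p = 0.0086). BCL2L11 fell from 139 ± 9.61 to 105 ± 4.71 CPM (-0.41 ± 0.10, edgeR adjusted p = 0.028), and was not called with total counts alone, with the replicate block (0.069) or without any 1 library other than DMSO replicate 1 (up to 0.13). PMAIP1 lost its call without erianin replicate 1 or 2 (up to 0.076) and HRK without erianin replicate 1 (0.059).

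The log2 fold changes of the pore-forming effectors BAX and BAK1 changed sign without DMSO replicate 1. BAX had 63.4, 131 and 139 CPM with DMSO and 110.1, 112 and 125 CPM with erianin (0.05 ± 0.27 SE, edgeR adjusted p = 0.90), but it fell when DMSO replicate 1 was left out (-0.21 ± 0.07, adjusted p = 0.0092). BAK1 had 31.9, 73.1 and 81.3 CPM with DMSO and 68.5, 64.7 and 72.5 CPM with erianin (0.14 ± 0.31, edgeR adjusted p = 0.78). It was not called without DMSO replicate 1 either (-0.16 ± 0.07, edgeR adjusted p = 0.070). In both genes DMSO replicate 1 was well below every other library. BBC3, which encodes PUMA, had 25.1 ± 7.83 and 23.5 ± 3.73 CPM (edgeR adjusted p = 0.81), and fell without DMSO replicate 1 (-0.32 ± 0.10, adjusted p = 0.010). BID, which links death receptors to mitochondria, had 34.4 ± 4.57 and 36.0 ± 3.66 CPM (edgeR adjusted p = 0.77). BMF, another BH3-only gene, had 36.4 ± 1.25 and 37.5 ± 2.64 CPM (edgeR adjusted p = 0.79). The list had, without DMSO replicate 1, 1 higher and 4 lower genes of 11, where 55.3% of all genes were called. Without erianin replicate 1 none of 11 was called, and without erianin replicate 2 only 1, lower. Of all genes, 6.65% and 6.36% were called in those 2 runs. Of 5 other relatives, BCL2L10, a further anti-apoptotic gene, had 0 to 3 counts, and BCL2L14 also had too few counts to test. BCL2L12, BCL2L13 and BCL2L15 were not called with all libraries. Without DMSO replicate 1, BCL2L12 rose (0.28 ± 0.07, edgeR adjusted p = 0.0015) and BCL2L13 fell (-0.20 ± 0.07, edgeR adjusted p = 0.022).

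**Figure D4:**
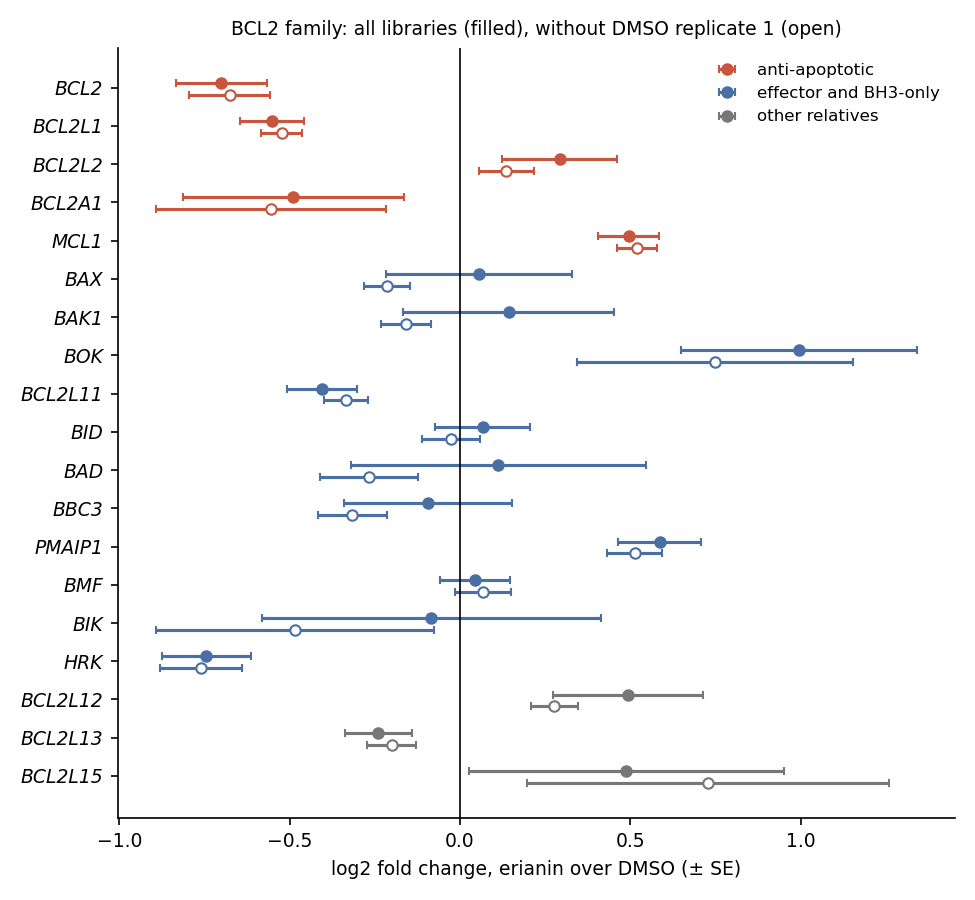
Log2 fold change of erianin over DMSO (x axis) with its SE for the tested genes of the BCL2 family, from all 6 libraries (filled) and without DMSO replicate 1 (open). MCL1 and PMAIP1 lie to the right and BCL2, BCL2L1, BCL2L11 and HRK to the left under both, while BAX, BAK1, BID and BAD change side.

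Genes known for the turnover of the MCL1 protein were examined because its amount is set largely by degradation. Among the 13 with enough counts, 1 rose and 2 fell, and 10 were not called (median log2 fold change -0.19), a share called near the 24.2% of all genes, whose median was -0.003. HUWE1, which encodes the ubiquitin ligase MULE, had 1245, 888 and 810.3 CPM with DMSO and 486, 504 and 514 CPM with erianin. It fell in every erianin library, with DMSO replicate 1 the highest (-0.97 ± 0.17 SE, edgeR adjusted p = 0.0084, and -0.75 ± 0.06 without that library). CDK1, the mitotic kinase that marks MCL1 for degradation in prolonged mitosis, fell from 145 ± 29.1 to 79.2 ± 5.97 CPM (-0.87 ± 0.16, edgeR adjusted p = 0.0094). CDC20, an activator of the anaphase-promoting complex, rose from 227 ± 46.4 to 501 ± 20.4 CPM (1.15 ± 0.16, edgeR adjusted p = 0.0044). HUWE1 lost its call without erianin replicate 1 or 2 and CDK1 without any erianin library (up to 0.056 and 0.055), while CDC20 was called under every alternative run. The deubiquitinase gene USP9X had 153 ± 24.3 and 129 ± 7.78 CPM (edgeR adjusted p = 0.23). MARCHF5, another ubiquitin ligase gene, is listed at 0 in every library, which was not read as absence because the annotation behind the counts is not known. Leaving out DMSO replicate 1 gave 2 higher and 2 lower genes of 13, where 55.3% of all genes were called. FBXW7, also of this list, rose in that run (0.34 ± 0.09, edgeR adjusted p = 0.0038) but was not called with all libraries (edgeR adjusted p = 0.19). Without erianin replicate 1 or 2 the list held 1 higher and 0 lower genes, where 6.65% and 6.36% of all genes were called.

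NF-kB target genes went both ways: 3 of 13 rose and 3 fell (median log2 fold change -0.36), where 24.2% of all genes were called with a median of -0.003. RELB, an NF-kB subunit that is itself a target, had 94.5, 175 and 176 CPM with DMSO and 56.0, 55.6 and 63.1 CPM with erianin (-1.35 ± 0.24 SE, edgeR adjusted p = 0.0086). CFLAR, which encodes the caspase-8 inhibitor FLIP, rose from 10.5 ± 0.585 to 16.2 ± 0.206 CPM (0.62 ± 0.11, edgeR adjusted p = 0.0089). TRAF1, a signalling adaptor, rose from 0.733 ± 0.278 to 2.08 ± 0.360 CPM (1.49 ± 0.31, edgeR adjusted p = 0.016). TNFAIP3, the feedback inhibitor A20, had 167 ± 32.9 and 121 ± 0.851 CPM (edgeR adjusted p = 0.055), and fell without DMSO replicate 1 (-0.28 ± 0.06, adjusted p = 0.00034). RELB and CFLAR lost their calls without erianin replicate 1 or 2 (up to 0.054 and 0.058), and TRAF1 without erianin replicate 1 or 3 (up to 0.070). Leaving out DMSO replicate 1 gave 4 higher and 6 lower genes of 13, where 55.3% of all genes were called. Without erianin replicates 1, 2 and 3 in turn 0, 1 and 2 were called. Over all genes, 777 of 11683, 745 of 11705 and 1198 of 11683 were called in those runs.

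Of 19 transcription regulators named for the family, 2 rose, 5 fell and 12 were not called, where 24.2% of all genes were called (median log2 fold change -0.42, against -0.003 over all genes). Whether more fell than rose was not tested, and without erianin replicate 1 or 2 the counts were 1 higher and 2 lower. This list shares NFKB2, RELB and IRF4 with the NF-kB targets. STAT3, an activator named for MCL1 and BCL2L1, had 56.3, 50.4 and 52.5 CPM with DMSO and 79.1, 80.3 and 80.6 CPM with erianin (0.59 ± 0.10 SE, edgeR adjusted p = 0.0067). ETS1, a lymphoid transcription factor, fell from 426 ± 54.6 to 254 ± 15.6 CPM (-0.75 ± 0.12, edgeR adjusted p = 0.0068). MYB, an activator named for BCL2, had 467, 250.01 and 243 CPM with DMSO and 118, 111 and 104 CPM with erianin (-1.53 ± 0.26, edgeR adjusted p = 0.0075, and -1.14 ± 0.06 without DMSO replicate 1). BCL6, the germinal centre repressor of BCL2, had 14.2, 7.33 and 7.09 CPM with DMSO and 10.1, 9.82 and 10.8 CPM with erianin. It was not called with all libraries (edgeR adjusted p = 0.81) and rose without DMSO replicate 1 (0.52 ± 0.12, adjusted p = 0.00084). Without DMSO replicate 1 the list had 5 higher and 10 lower genes of 19, where 55.3% of all genes were called. Without erianin replicates 1, 2 and 3 in turn 3, 3 and 4 were called. Over all genes, 777 of 11683, 745 of 11705 and 1198 of 11683 were called in those runs.

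Of 16 genes for binding partners and mitochondrial companions, 5 rose and 3 fell, and 8 were not called (median log2 fold change 0.08, against -0.003 over all genes, of which 24.2% were called). The 3 that fell were the inositol trisphosphate receptor genes, which encode the calcium channels that BCL2 and BCL-XL bind at the endoplasmic reticulum. ITPR3 fell from 278 ± 16.5 to 148 ± 9.53 CPM (-0.91 ± 0.10 SE, edgeR adjusted p = 0.0025). ITPR1 fell from 86.9 ± 9.03 to 46.9 ± 3.83 CPM (-0.89 ± 0.12, edgeR adjusted p = 0.0040). ITPR2 fell from 30.2 ± 5.54 to 18.6 ± 0.558 CPM (-0.69 ± 0.15, edgeR adjusted p = 0.016), and was not called without any 1 erianin library (up to 0.085). BAG3, a cochaperone that binds BCL2, rose from 8.97 ± 2.11 to 18.8 ± 1.78 CPM (1.06 ± 0.18, edgeR adjusted p = 0.0081). With the replicate block 1 was higher and 3 lower, where 2296 of all 11550 genes were called. Without DMSO replicate 2 or 3 or any 1 erianin library 3 to 5 were called. Over all genes, 745 to 1980 of 11683 to 11769 were called in those runs. Among the genes outside the 5 members whose calls are given above, the TPM scales ended those of PMAIP1, HRK, BCL2L11, RELB, ETS1 and all 3 receptor genes.

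The genes whose course over the 6 libraries was most like each member were ranked by the root mean square difference of log2 CPM, centred on the DMSO mean, among 7848 genes of at least 10 CPM on average. For MCL1 they were FASTKD2 (0.036), IFRD1 (0.038) and SPAG5 (0.041). IFRD1 had 130, 129 and 130 CPM with DMSO and 189.6, 183 and 169 CPM with erianin. For BCL2L1 they included TBC1D22A (0.020) and SNX29 (0.023), and for BCL2 they were NUBP1 (0.057), ATP8A1 (0.065) and GMEB1 (0.072). For BCL2L2 they were RPS7 (0.030), UCK2 (0.034) and RCC1 (0.042). RPS7, a ribosomal protein gene, had 586, 893 and 896 CPM with DMSO and 1008, 956 and 957 CPM with erianin, and so shared the low DMSO replicate 1 of BCL2L2. For BCL2A1 they included TIFA (0.262) and ZNF248 (0.289), several times farther than for the other members.

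**Figure D5:**
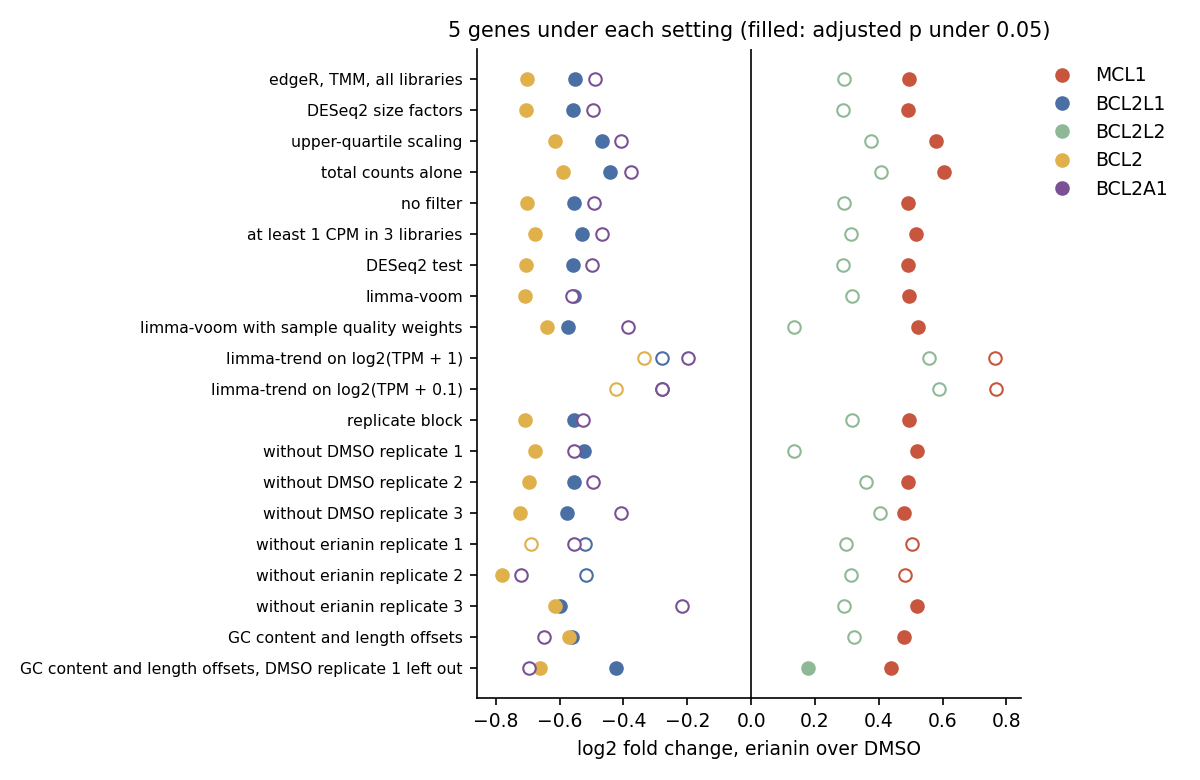
Log2 fold change of erianin over DMSO (x axis) of the 5 genes under each way of scaling, filtering, testing or leaving out libraries (y axis), filled where the adjusted p is under 0.05. MCL1 and BCL2L2 stay to the right and BCL2, BCL2L1 and BCL2A1 to the left in every row, while calls of MCL1, BCL2L1 and BCL2 end on the TPM scales and without erianin replicate 1.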

How the data were processed

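The deposited tables, made by the authors, held integer read counts and TPM for each gene. The submitters' processing notes name STAR 2.7.10, StringTie 2.2.1, featureCounts 2.0.1 and fastp 0.23.2 with the build GRCh38 (hg38), and no sources used here give the annotation release, strandedness or read-pair handling. The deposited TPM equalled count over a fixed length per gene times a factor per library (relative deviation up to 0.000377 in 10205 genes). DMSO replicate 1 had a TPM sum of 39.2% of the full scale and the others of 63.6% to 66.7%, so TPM was used within a library. Repeated symbols (61) were left out, and 65746 stayed.

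The main test was the edgeR 4.0.16 quasi-likelihood F test (R 4.3.3, TMM, filterByExpr, treatment as the single term), Benjamini-Hochberg adjusted over 11550 genes and called at 0.05. SE was computed as |log2 fold change| / √F. Exact permutation tests (two-sided) compared shares and ratios. Alternatives used DESeq2 1.42.0, limma 3.58.1 and mgcv 1.9.3. On simulated data the fit missed most changes of the smaller size tried, and its share of false calls was above the nominal one. Plots used Python 3.11.15, pandas 2.3.3 and matplotlib 3.10.9. Coordinates came from GENCODE 29 and promoter windows from RefSeq.

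The members and lists were chosen with earlier results of these data known. Named genes were the 5 members, up to 3 called genes with the smallest p per list, 11 genes fixed by name, and the 3 genes most like each member, of which some are not reported here. ITPR2, FBXW7, the marker genes, and IFRD1 and RPS7 for values by library were picked after their values were seen.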

Additional observations from a re-analysis of the deposited data

How the results depend on the processing

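All 5 log2 fold changes kept their direction under all 19 alternatives each, from -0.78 to -0.33 for BCL2, -0.598 to -0.28 for BCL2L1, 0.13 to 0.59 for BCL2L2, -0.72 to -0.20 for BCL2A1 and 0.44 to 0.77 for MCL1. On log2(TPM + 1) and log2(TPM + 0.1) none of the 5 was called (limma): BCL2 had -0.33 and -0.42, BCL2L1 -0.28 and -0.28 and MCL1 0.76 and 0.77 (adjusted p = 0.0505 and 0.054 for MCL1), so 0 members were called, with DMSO replicate 1 on another TPM scale. GC content and length offsets kept the 3 calls, and with DMSO replicate 1 left out as well BCL2L2 was called higher (0.18, edgeR adjusted p = 0.013). Leaving out 1 library moved the log2 fold changes over -0.78 to -0.61 (BCL2), -0.598 to -0.52 (BCL2L1), 0.48 to 0.52 (MCL1), 0.14 to 0.40 (BCL2L2) and -0.72 to -0.22 (BCL2A1), the members called over 0 to 3, and all genes called over 745 to 6505, the most without DMSO replicate 1. It moved the calls over 0 to 5 effector and BH3-only genes, 1 to 4 MCL1 turnover genes, 0 to 10 NF-kB targets, 3 to 15 regulators and 3 to 12 binding partners.

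All genes called numbered 2791, and 7408 with sample quality weights, 1670 and 1508 on the 2 TPM scales and 7232 with the offsets and DMSO replicate 1 left out. In the same order of settings, effector and BH3-only calls (3) were 7, 0, 0 and 6, NF-kB target calls (6) were 11, 2 and 2 on the first 3, and regulator calls (7) were 17, 3, 3 and 15. MCL1 turnover calls (3) were 8 with quality weights, 5 with the offsets (4021 of all genes) and 7 with the offsets and DMSO replicate 1 left out. Binding partner calls (8) were 1 and 1 on the TPM scales. The cause of these moves was not tested.

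With the replicate block the log2 fold changes were 0.49 for MCL1, -0.55 for BCL2L1 and -0.71 for BCL2 (edgeR adjusted p = 0.036, 0.028 and 0.023), 2296 genes were called in all, and binding partner calls were 4. Same-numbered libraries correlated at 0.167, -0.143 and 0.231 in their deviations from the group means, so the numbers were not taken as pairs, and not every library correlated best with its own number. The share differences of all 5 members kept their sign under 8 alternatives each. BCL2A1 rests on 16 to 42 counts per library.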
